A study of Chlorella variabilis with 6 samples.

Results

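The genes described here are those with at least 4-fold more counts in LOG OX1 than in WT cells of the green alga Chlorella variabilis. Membership was set by the measured values: CPM stands for the count divided by the total of its library and multiplied by 1000000, and a gene was taken when its mean CPM in LOG OX1 was at least 10, when (mean LOG OX1 CPM + 0.1)/(mean WT CPM + 0.1) was at least 4, and when every LOG OX1 library lay above every WT library. Ratios of a gene given below are this quotient of means, with the 0.1 included. Of 9625 genes, 115 met these conditions, a share of 1.19%. The rule names 9 genes to be left out, 8 of which met the conditions, so that 107 members remained, 1.11% of all genes. The members were chosen on this contrast, and their difference between LOG OX1 and WT is therefore given as a description without a test. The mirror image of the rule, with WT on top and no gene left out, was met by 118 genes.

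LOG OX1 is 1 line of Chlorella variabilis NC64A in which CvarLOG1, the LONELY GUY gene of this alga, was placed behind the constitutive 35S promoter in the binary vector pMDC32 and brought into wild-type cells by electroporation. WT is the untransformed NC64A strain. RNA was taken from 3 cultures of each genotype at 14 days post inoculation (dpi), 1 h before the dark phase of the light-dark cycle, and sequenced with a directional library kit to learn which pathways lie downstream of the overexpressed gene. The transformed cells had been selected on hygromycin by a resistance gene that came with the vector. With a single overexpression line and a single time point, several differences between the genotypes cannot be told apart. They are the transgene, its place of insertion, the resistance gene, the selection and the growth stage reached at 14 dpi. Because each sample is RNA of a whole culture, a different share of cells in some state and a different amount of RNA per cell cannot be told apart either.

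LONELY GUY enzymes release the active free-base cytokinins from their nucleotide forms, and in land plants cytokinins act on cell division, on the timing of senescence and on the chloroplast. Chlorella cells grow in the light and divide by splitting into several daughter cells, which requires a supply of deoxyribonucleotides, the division of the single chloroplast and a set of microtubule motors. The 8 members with a protein name include a gene for each of these steps, while 96 of the 107 members have no description. The remaining named members are listed as acetolactate synthase, a hybrid-cluster protein, coproporphyrinogen oxidase, an ATP-binding cassette protein and a receptor-like kinase. No shared theme is read from so few names. The motor gene stands at a ratio of 4.001, just inside the limit of the rule. Other motor genes on the lists of the study moved in both directions. CvarLOG1 itself (CHLNCDRAFT_28106) is no member. It had 38.2, 40.5 and 35.8 CPM in the LOG OX1 libraries, against 20.3, 20.03 and 23.5 CPM in the WT libraries, so the groups did not overlap. Its log2 fold change was 0.86 ± 0.086 (SE, n = 3 per group; edgeR quasi-likelihood test, adjusted p = 1.42e-07), and reads of the introduced and of the native copy cannot be told apart in these counts.

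Total counts were between 10180885 and 12444029 in the LOG OX1 libraries and between 10743741 and 12546100 in the WT libraries. Over the genes that reached 10 counts in all 6 libraries, Pearson's r of log2(CPM + 1) was 0.995 to 0.997 between libraries of a group and 0.912 to 0.915 between the groups. With limits of 0.05 on the adjusted p and 1.5-fold on the change, edgeR called 1274 of 9101 tested genes higher in LOG OX1 (14%) and 1328 lower (14.6%). With upper-quartile factors in place of TMM factors, 1673 were called higher and 1068 lower, since that scaling moved the median log2 fold change of all genes to 0.11. Every LOG OX1 library lay above every WT library in 33.6% of all 9625 genes. All 107 members passed the filter on low counts, and all 107 were among the genes called higher, which the rule could hardly fail to give and from which nothing is read. The members made up 1.52% ± 0.0098 of the counts in LOG OX1 and 0.264% ± 0.0027 in WT (SD, n = 3 each). A single gene, CHLNCDRAFT_59790, accounted for most of both shares, and without it the members made up 0.566% ± 0.0039 in LOG OX1 and 0.0881% ± 0.0015 in WT (SD, n = 3 each).

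**Figure D1:**
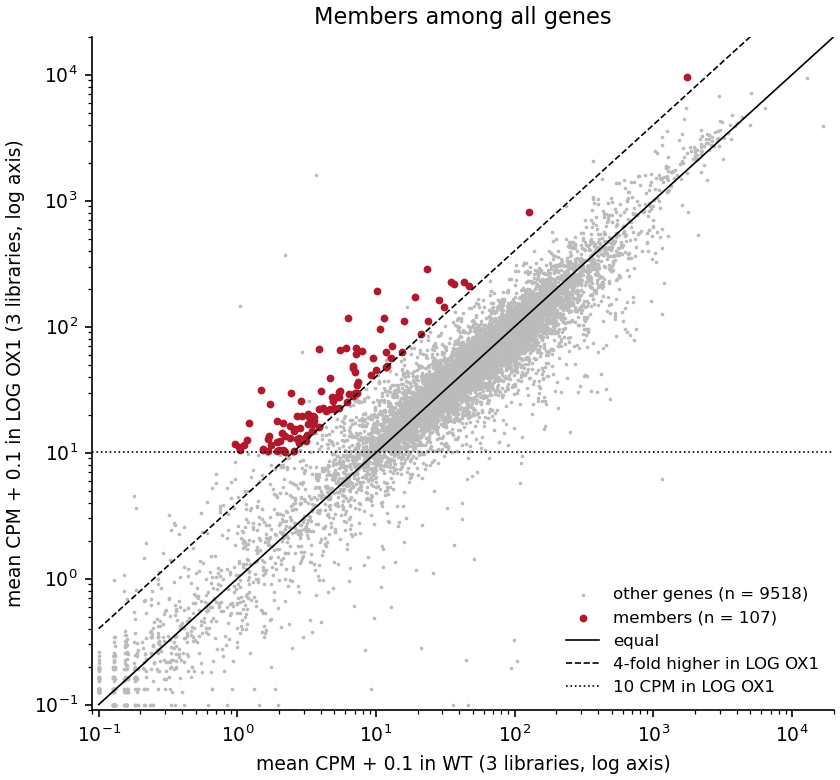
Mean CPM + 0.1 of each gene in LOG OX1 (vertical) against WT (horizontal), both on log axes, with the 107 members in red and the 9518 other genes in grey; lines mark equality, the 4-fold limit and the limit of 10 CPM. Most members lie at the low end of the WT axis, at a median of 4.03 CPM, and CHLNCDRAFT_59790 stands alone at the upper right.

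Most members were sparsely expressed in WT. Their mean CPM was 24.1 in LOG OX1 at the median and ranged between 10.1 and 9513, whereas in WT the median was 4.03 and the range 0.865 to 1758. In LOG OX1, 28 members had at least 50 CPM and 15 at least 100 CPM, while in WT 61 of the 107 had a mean under 5 CPM and 86 under 10 CPM. The lowest count of a member in any library was 90 in LOG OX1 and 3 in WT. No member had 3 counts or fewer in every WT library. Whether the lowest of these counts reflect transcription of the gene was not tested.

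In the gene list of the study 8 members carry the name of a known protein, 3 more are listed as uncharacterized proteins with an ontology term, and 96 have no description. The paper found reviewed functions for a minority of its changed genes. The same shares over its whole list were not worked out, so these numbers are not called high or low. The named ones are given first, by the process their protein is known for.

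CHLNCDRAFT_34102 (gene identifier 17358070) is listed as a ribonucleoside-diphosphate reductase, the enzyme that turns ribonucleotides into the deoxyribonucleotides needed for DNA synthesis. It had 63.9, 62.8 and 67.4 CPM in the LOG OX1 libraries, against 4.75, 6.73 and 4.78 CPM in the WT libraries. The LOG OX1 libraries lay close together and far above WT, with a ratio of 11.7 and a log2 fold change of 3.59 ± 0.10 (SE), the largest among the named proteins. CHLNCDRAFT_56997 (17357547) is listed as the large subunit of acetolactate synthase, which catalyses the first shared step of valine, leucine and isoleucine synthesis in the plastid. Its values were 96.0, 95.1 and 94.8 CPM in LOG OX1, against 10.6, 8.92 and 12.3 CPM in WT. The LOG OX1 libraries differed by a CV of 0.663%, the smallest of all members in that group, and the ratio of means was 8.92.

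Plastid division and microtubule transport were represented by a gene each. CHLNCDRAFT_37081 (17351418) is listed as ARC5, a dynamin-related GTPase which in Arabidopsis pinches the chloroplast from the outside during division. It had 109, 112 and 109 CPM in LOG OX1, against 15.8, 17.0 and 14.6 CPM in WT, a ratio of 6.93 with little spread in either group. CHLNCDRAFT_9136 (17352162) is listed as a kinesin-like protein with an ontology term for minus-end-directed movement along microtubules. Its values of 14.3, 12.1 and 10.6 CPM in LOG OX1, against 3.26, 3.28 and 2.47 CPM in WT, placed it at a ratio of 4.001, the last member inside the limit.

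The hybrid-cluster protein CHLNCDRAFT_29581 (17358492), an iron-sulfur oxidoreductase that acts on nitrogen compounds, was the named member with the most counts. It had 812, 831 and 811 CPM in LOG OX1, against 129, 127 and 124 CPM in WT, a ratio of 6.45 and a log2 fold change of 2.71 ± 0.040 (SE). Its CV was 1.41% in LOG OX1 and 1.98% in WT, so it was also one of the most precisely measured members. CHLNCDRAFT_142838 (17357171) is listed as an aerobic coproporphyrinogen oxidase of the chloroplast, an oxygen-dependent step of the pathway shared by heme and chlorophyll. Its values were 26.8, 25.6 and 31.5 CPM in LOG OX1, against 8.47, 6.99 and 4.78 CPM in WT, a ratio of 4.10. WT replicate 3 was the lowest of its group here and LOG OX1 replicate 3 the highest of its own, and without either of them the gene no longer met the rule.

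Membrane proteins were also found towards the lower end of the ratios. CHLNCDRAFT_142571 (17350157), of the ATP-binding cassette superfamily of membrane transporters, had 134, 147 and 144 CPM in LOG OX1, against 32.1, 30.9 and 29.6 CPM in WT, a ratio of 4.59. CHLNCDRAFT_140750 (17358053), a receptor-like kinase, belongs to a class of membrane proteins that in plants pass on signals from outside the cell. It had 13.7, 14.2 and 13.2 CPM in LOG OX1, against 3.26, 3.11 and 2.79 CPM in WT, a ratio of 4.38. Both genes had groups far apart relative to their spread, although the second was measured at 35 to 37 counts per WT library. Of the uncharacterized proteins, CHLNCDRAFT_51983 carries a term for the regulation of transcription and had a mean of 21.9 ± 0.81 CPM in LOG OX1 and 3.75 ± 0.57 CPM in WT (SD, n = 3 each). CHLNCDRAFT_142854, with terms for a membrane protein that cleaves glycosidic bonds, had 18.9 ± 0.83 CPM in LOG OX1 and 3.49 ± 0.55 CPM in WT (SD, n = 3 each). CHLNCDRAFT_58787, with a membrane term only, had 15.6 ± 1.71 CPM in LOG OX1 and 2.72 ± 0.27 CPM in WT (SD, n = 3 each).

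**Figure D2:**
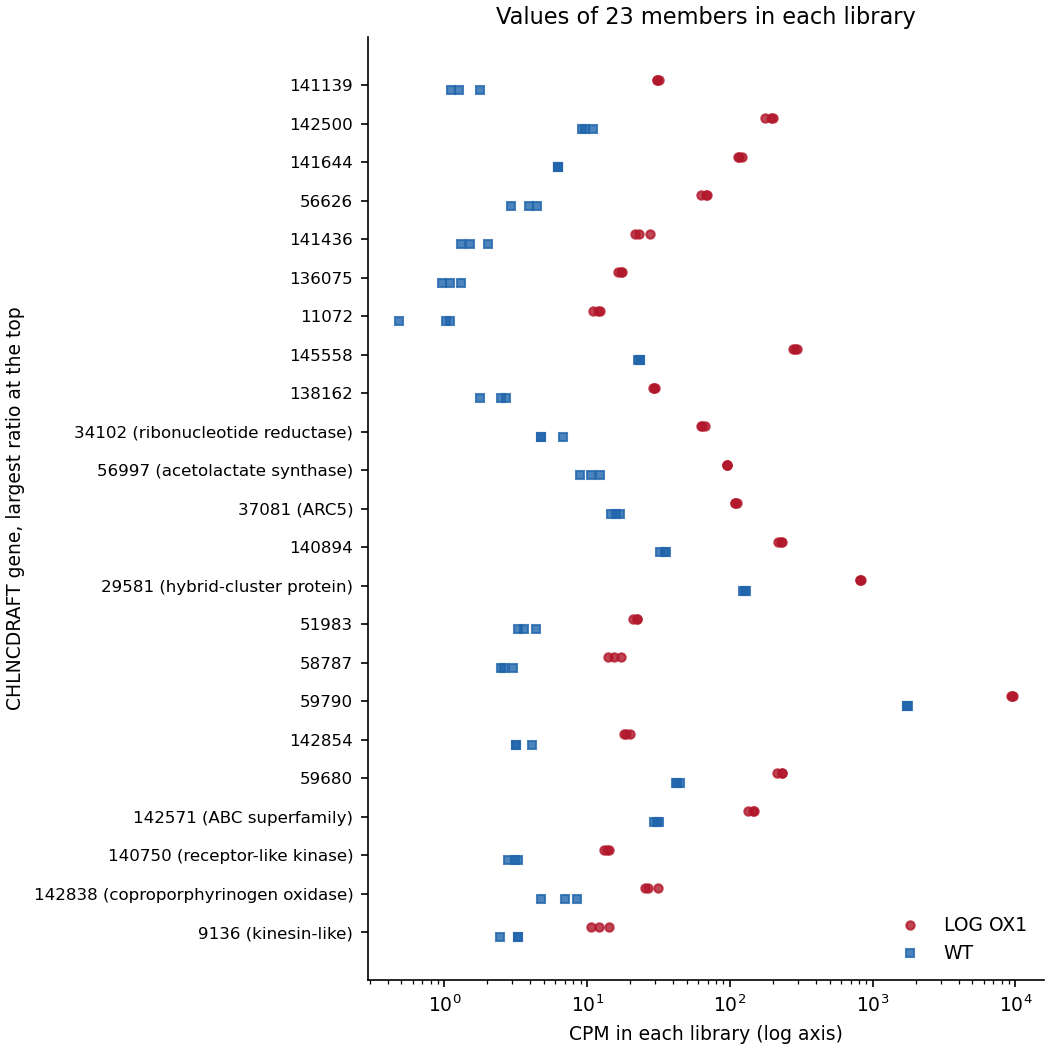
CPM in each library (log axis) for 23 members: the 8 with a protein name, the 3 uncharacterized proteins, the 10 with the largest ratio and the 5 with the most counts, some of which coincide. Circles are LOG OX1 libraries and squares WT libraries, and genes run down the page by falling ratio; CHLNCDRAFT_141139 has 31.0 to 32.0 CPM in LOG OX1 and 1.12 to 1.77 CPM in WT, and the kinesin-like gene at the bottom stands at a ratio of 4.001.

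The largest ratios belonged mostly to genes without a description, as do 96 of all 107 members. Of the 10 highest, 1 has a protein name, the ribonucleoside-diphosphate reductase, beside 8 of all 107 members. The highest ratios are thus not set apart by a lack of names. CHLNCDRAFT_141139 led with 31.0, 32.0 and 31.0 CPM in LOG OX1, against 1.77, 1.26 and 1.12 CPM in WT, a ratio of 21.2. The 14 to 19 counts it had in each WT library leave the size of this ratio uncertain, which the SE of 0.14 on its log2 fold change of 4.53 reflects. CHLNCDRAFT_142500 had 201, 194 and 177 CPM in LOG OX1, against 9.21, 11.03 and 9.72 CPM in WT, a ratio of 18.9. CHLNCDRAFT_141644 had 116, 122 and 114 CPM in LOG OX1, against 6.24, 6.23 and 6.22 CPM in WT, a ratio of 18.6. These next in rank were measured at 67 counts or more in each WT library. CHLNCDRAFT_141644 had the widest gap of all members, its lowest LOG OX1 library being 18.0 times its highest WT library with 0.1 CPM added to both.

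CHLNCDRAFT_56626 followed at a ratio of 17.2, with 66.6 ± 3.00 CPM in LOG OX1 and 3.77 ± 0.77 CPM in WT (SD, n = 3 each). CHLNCDRAFT_141436 and CHLNCDRAFT_136075 stood together at a ratio of 14.1. The other members of the first 10 were CHLNCDRAFT_11072, CHLNCDRAFT_145558, CHLNCDRAFT_138162 and the reductase CHLNCDRAFT_34102, with ratios between 11.7 and 12.2. CHLNCDRAFT_11072 had 11.7 ± 0.61 CPM in LOG OX1 and, in WT, the lowest mean of all members, 0.865 ± 0.34 CPM (SD, n = 3 each). By contrast, CHLNCDRAFT_145558 combined a large ratio with many counts, at 285 ± 8.4 CPM in LOG OX1 and 23.3 ± 0.53 CPM in WT (SD, n = 3 each).

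CHLNCDRAFT_59790 (gene identifier 17351287), which has no description, held more counts than any other gene in LOG OX1. It had 9629.6, 9367 and 9542 CPM in LOG OX1, against 1784, 1746 and 1745 CPM in WT. It ranked 1 of 9625 genes by mean CPM in LOG OX1 and 62 in WT, with a ratio of 5.41 and a CV of 1.40% in LOG OX1 and 1.25% in WT. CPM are not divided by transcript length, so these ranks are of counts. The others among the 5 most counted members were the hybrid-cluster protein, CHLNCDRAFT_145558, CHLNCDRAFT_140894 with 226 ± 7.6 CPM in LOG OX1 and 34.4 ± 1.9 CPM in WT, and CHLNCDRAFT_59680 with 225 ± 9.8 CPM in LOG OX1 and 43.2 ± 1.3 CPM in WT (SD, n = 3 each). Among the 1000 genes with the most counts were 9 members in LOG OX1 and 1 member in WT.

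Over the 107 members the ratio had a median of 5.67, with 72 members at 5 or more, 26 at 8 or more, 16 at 10 or more and 4 at 15 or more. The fitted log2 fold changes had a median of 2.53, against 0.00 over all 9101 genes tested, a gap that the rule itself sets. For 76 members even the lowest LOG OX1 library was at least 4 times the highest WT library, and for 105 at least 3 times, with a lowest value of 2.93. The ranks of the libraries within a group varied from member to member. The highest LOG OX1 value fell in replicate 1 for 42 members, in replicate 2 for 37 and in replicate 3 for 28, and the highest WT value fell in replicate 1 for 37, in replicate 2 for 39 and in replicate 3 for 31.

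**Figure D3:**
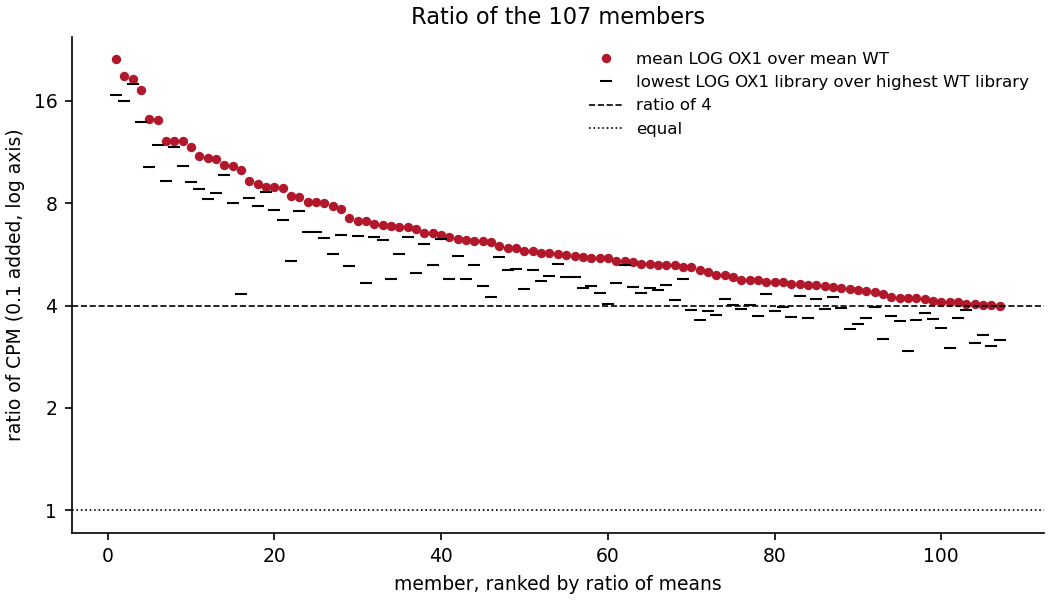
Ratio of mean CPM in LOG OX1 to mean CPM in WT for each of the 107 members, ranked (circles, log axis, 0.1 added to each value), and the ratio of the lowest LOG OX1 library to the highest WT library (bars). The ratios run between 21.2 and 4.001, and the bars between 18.0 and 2.93, all above equality because the rule requires it.

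The limits cut through a continuous range. Just inside the ratio of 4 were CHLNCDRAFT_9136, CHLNCDRAFT_137547 and CHLNCDRAFT_137642, with ratios of 4.001, 4.02 and 4.03. Just outside it were CHLNCDRAFT_142544, CHLNCDRAFT_143823 and CHLNCDRAFT_143912, with 3.997, 3.98 and 3.90. At the other limit, CHLNCDRAFT_54730, CHLNCDRAFT_50360 and CHLNCDRAFT_133804 were just inside with mean LOG OX1 CPM of 10.09, 10.1 and 10.2, while CHLNCDRAFT_138469, CHLNCDRAFT_134121 and CHLNCDRAFT_54039 had 9.69, 9.60 and 9.41 and were left outside. A further 47 genes reached the ratio of 4 with separated groups but had a mean under 10 CPM in LOG OX1, CHLNCDRAFT_133646 of the genes left out among them.

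The CV between replicate cultures had a median of 6.06% in LOG OX1 and 12.2% in WT over the 107 members. The median member had 264 counts per library in LOG OX1 and 47 in WT, a gap that the rule itself sets, so nothing is read from the larger CVs in WT. The CV exceeded 30% for 0 members in LOG OX1 and for 6 in WT. The widest, chosen for naming after its values were seen, was CHLNCDRAFT_144183, with 10.4, 11.3 and 9.63 CPM in LOG OX1, against 0.279, 0.421 and 2.15 CPM in WT. WT replicate 3 stood apart from its group there, with 27 counts against 3 and 5 in the others, and the gene's lowest LOG OX1 library was 4.32 times that replicate.

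Where the members lie in the genome was not used by the rule. All 9625 identifiers were found in the reference annotation of Chlorella variabilis NC64A, which was used for the order of genes only. The members were spread over 34 of 172 inferred scaffolds, with at most 12 on one of them. On 5 occasions a member was followed directly by another, which involved 10 of the 107 members (9.35%), and with up to 1 gene between them there were 9 such pairs. Members are 1.11% of all genes. How many such pairs other lists of this size hold was not worked out, so the number is not called high or low. The closest pairs were CHLNCDRAFT_133009 with CHLNCDRAFT_133010, CHLNCDRAFT_136074 with CHLNCDRAFT_136075, CHLNCDRAFT_139611 with CHLNCDRAFT_139612, CHLNCDRAFT_142499 with CHLNCDRAFT_142500 and CHLNCDRAFT_142837 with CHLNCDRAFT_142838. The annotated spans of these pairs did not overlap. In 2 further places a member stood beside a gene left out by the rule, CHLNCDRAFT_133897 beside CHLNCDRAFT_133898, listed as a sulfate transporter, and CHLNCDRAFT_142071 beside CHLNCDRAFT_142072.

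Paired members could differ widely in level and ratio. CHLNCDRAFT_136074 had 118 ± 3.3 CPM in LOG OX1 and 11.3 ± 0.37 CPM in WT, and its neighbour CHLNCDRAFT_136075 had 17.1 ± 0.51 CPM in LOG OX1 and 1.12 ± 0.17 CPM in WT (SD, n = 3 each). CHLNCDRAFT_142499 and CHLNCDRAFT_142500 had similar counts in LOG OX1, at 217 ± 5.9 CPM and 191 ± 12.2 CPM, but 36.1 ± 1.6 CPM and 9.99 ± 0.93 CPM in WT (SD, n = 3 each). The ratio was thus 5.99 for the first and 18.9 for the second. The coproporphyrinogen oxidase gene CHLNCDRAFT_142838 and its undescribed neighbour CHLNCDRAFT_142837 had nearly the same ratio, 4.10 and 4.17. In the remaining pairs the ratios were 8.92 and 7.11 for CHLNCDRAFT_133009 and CHLNCDRAFT_133010, and 6.72 and 5.26 for CHLNCDRAFT_139611 and CHLNCDRAFT_139612.

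The genes directly beside a member that are neither members nor left out all failed the rule, as did the genes set beside them below. Their choice is therefore not free of the measured values. CHLNCDRAFT_140598, for example, had a ratio of 7.94 with separated groups and failed only the limit of 10 CPM. Of 181 such genes tested, 37 rose (20.4%) and 19 fell (10.5%), whereas of all 8985 tested genes that are neither members nor left out 12.9% were called higher and 14.8% lower. The median log2 fold change was 0.04 beside the members and -0.01 over the 8985 genes. At a distance of 2 genes the share called higher was 12.8%, at 3 genes 11.8%, and between 4 and 10 genes it lay between 13.5% and 17.6%. Genes beside any other gene called higher had a share of 17.9% called higher and 12.1% lower, of 1965 tested. Counted by member, 44 of 107 (41.1%) had at least 1 adjacent gene called higher, members included, as did 33.8% of all genes called higher and 24.0% of all genes tested. No test of these shares was made, and neighbouring genes are not independent. Counting on the wrong gene at overlapping ends was not tested; of the 37 neighbours that rose, 1 had an annotated span overlapping the next gene. The neighbours that rose, all named here after their values were seen unless they belong to a pathway list, included CHLNCDRAFT_140598, which lies between the members CHLNCDRAFT_140597 and CHLNCDRAFT_140599. It had 5.85, 4.26 and 5.30 CPM in LOG OX1, against 0.465, 0.337 and 0.877 CPM in WT, and its log2 fold change was 3.16 ± 0.30 (SE, n = 3 per group; edgeR quasi-likelihood test, adjusted p = 7.99e-08). A DNA polymerase gene, CHLNCDRAFT_139024, stands beside CHLNCDRAFT_139023 and had 67.5 ± 2.86 CPM in LOG OX1 and 17.7 ± 1.63 CPM in WT (SD, n = 3 each; log2 fold change 1.95, edgeR quasi-likelihood test, adjusted p = 7.09e-13). The gene after the most counted member, CHLNCDRAFT_59789, rose less than its neighbour, with 435 ± 5.5 CPM in LOG OX1 and 267 ± 2.1 CPM in WT (SD, n = 3 each; log2 fold change 0.73, edgeR adjusted p = 2.98e-11). In the opposite direction, CHLNCDRAFT_145559, beside CHLNCDRAFT_145558, fell to 32.4 ± 0.60 CPM in LOG OX1, against 122 ± 3.2 CPM in WT (SD, n = 3 each; log2 fold change -1.89, edgeR adjusted p = 4.86e-15).

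**Figure D4:**
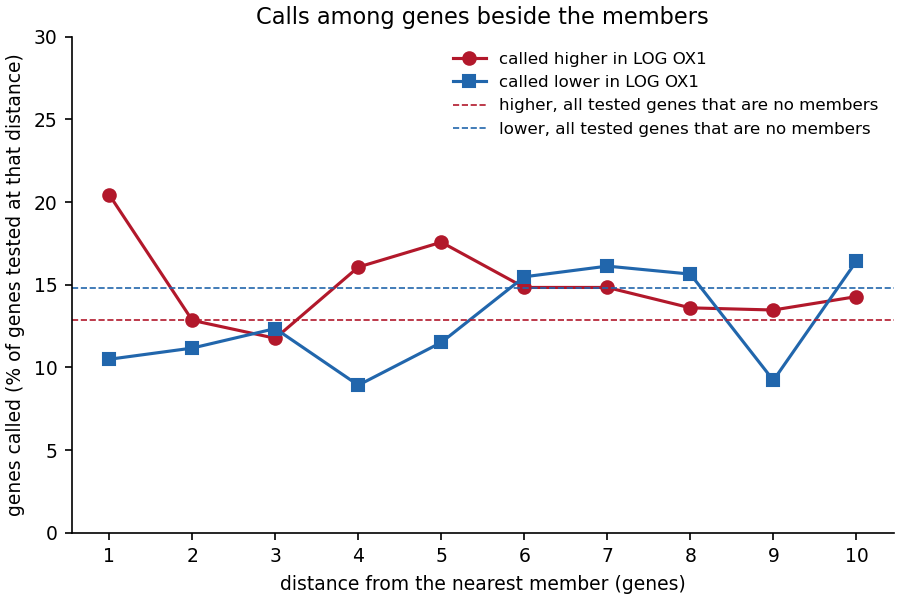
Share of tested genes called higher (circles) and lower (squares) in LOG OX1 at each distance from the nearest member, counted in genes along the annotation; dashed lines give the shares over all 8985 tested genes that are neither members nor left out, 12.9% higher and 14.8% lower. The share called higher is 20.4% directly beside a member and 12.8% at 2 genes, with 140 to 181 genes tested at each distance.

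The pathway lists of the study show where the named members stand among genes of the same process. These lists hold only genes that the study called changed in the same samples, so the counts below are not independent evidence of a direction. Over 9 lists with 93 different genes, 59 were called higher and 34 lower, and 4 of the 93 were members. In purine or pyrimidine metabolism, 4 of 6 listed genes rose and 2 fell, and the ribonucleoside-diphosphate reductase, a member, had the largest change. Phosphoribosylglycinamide formyltransferase (CHLNCDRAFT_132916), an enzyme of purine synthesis, had a log2 fold change of 1.25 ± 0.086 (SE; edgeR adjusted p = 1.31e-09). UMP-CMP kinase (CHLNCDRAFT_141713), which phosphorylates pyrimidine nucleotides, fell with a log2 fold change of -0.80 ± 0.051 (SE; edgeR adjusted p = 5.05e-10). Among the DNA repair and recombination proteins, 7 of 8 rose, including the reductase and proliferating cell nuclear antigen (CHLNCDRAFT_59751), the sliding clamp of DNA polymerases, with 193 ± 12.8 CPM in LOG OX1 and 67.0 ± 3.8 CPM in WT (SD, n = 3 each).

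On the cytoskeleton list 9 of 15 genes rose and 6 fell, and the genes listed as kinesins did not move one way. Beside the member CHLNCDRAFT_9136, CHLNCDRAFT_8821 rose by 1.82 ± 0.13 and CHLNCDRAFT_26240 by 1.86 ± 0.25 on the log2 scale, whereas CHLNCDRAFT_28927 fell by 0.90 ± 0.059 (SE; edgeR adjusted p = 3.19e-09, 5.03e-06 and 6.39e-10). CHLNCDRAFT_28927 was the kinesin with the most counts, at 133 ± 10.3 CPM in LOG OX1 and 253 ± 19.9 CPM in WT (SD, n = 3 each). A dynein heavy chain (CHLNCDRAFT_20468) and a dynein light chain (CHLNCDRAFT_19114) fell, with log2 fold changes of -1.47 ± 0.14 and -1.58 ± 0.23 (SE). An unconventional myosin heavy chain (CHLNCDRAFT_26915) rose by 1.95 ± 0.16 on the log2 scale (SE). The dyneins and the myosin were added after their values were seen. Of the chromosome and associated proteins 19 of 22 rose. They include the kinesin-like gene CHLNCDRAFT_21604, which rose by 2.91 ± 0.49 on the log2 scale (SE; edgeR adjusted p = 5.74e-05) but stayed outside the members with a mean of 2.14 CPM in LOG OX1.

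The list for porphyrin and chlorophyll metabolism was split, with 4 of 9 genes higher and 5 lower. All 8 genes of it that are no members are named here, more than the rule for naming asks, and the 3 glutamyl-tRNA synthetases were added after their values were seen. Upstream of the member coproporphyrinogen oxidase the listed genes moved in both directions. Glutamate enters the pathway after a glutamyl-tRNA synthetase has charged it. The synthetases with a chloroplast label fell, CHLNCDRAFT_134869 with a log2 fold change of -1.07 ± 0.047 and CHLNCDRAFT_29092 with -0.87 ± 0.086 (SE, edgeR adjusted p = 3.50e-12 and 1.15e-07). CHLNCDRAFT_137448, listed as such a synthetase without that label, rose by 0.86 ± 0.050 on the log2 scale (SE, edgeR adjusted p = 1.41e-10). Still upstream, glutamate-1-semialdehyde aminomutase (CHLNCDRAFT_37143), which forms the precursor of all tetrapyrroles, rose to 612 ± 11.4 CPM in LOG OX1, against 326 ± 2.6 CPM in WT (SD, n = 3 each; log2 fold change 0.93, edgeR adjusted p = 1.27e-12). Uroporphyrinogen-III C-methyltransferase (CHLNCDRAFT_141338), which leads off towards siroheme, rose by 1.39 ± 0.093 on the log2 scale (SE; edgeR adjusted p = 8.24e-10). All 3 listed genes of the chlorophyll branch, which lies downstream of the oxidase, fell: magnesium chelatase (CHLNCDRAFT_143829) had a log2 fold change of -1.11 ± 0.048, another gene listed as magnesium chelatase (CHLNCDRAFT_57315) -0.73 ± 0.079, and chlorophyll synthase (CHLNCDRAFT_34863) -0.86 ± 0.045 (SE; edgeR adjusted p = 3.20e-12, 3.51e-07 and 3.26e-11).

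Among the transporters 7 of 13 rose and 6 fell. The member CHLNCDRAFT_142571 of the ATP-binding cassette superfamily had a counterpart in the other direction. CHLNCDRAFT_52158, listed as a multidrug resistance-associated protein, a family of the same superfamily, fell to 61.8 ± 2.35 CPM in LOG OX1, against 174 ± 13.3 CPM in WT (SD, n = 3 each; log2 fold change -1.47, edgeR adjusted p = 4.54e-13). A sulfate permease of the chloroplast (CHLNCDRAFT_35424) rose by 0.85 ± 0.054 on the log2 scale (SE; edgeR adjusted p = 4.35e-10), and 2 ammonium transporters fell, CHLNCDRAFT_36096 with a log2 fold change of -1.03 ± 0.046 and CHLNCDRAFT_56592 with -1.77 ± 0.047 (SE; edgeR adjusted p = 4.13e-12 and 5.70e-15). None of the 13 genes listed as protein kinases was a member, and the receptor-like kinase CHLNCDRAFT_140750 carried no pathway term.

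**Figure D5:**
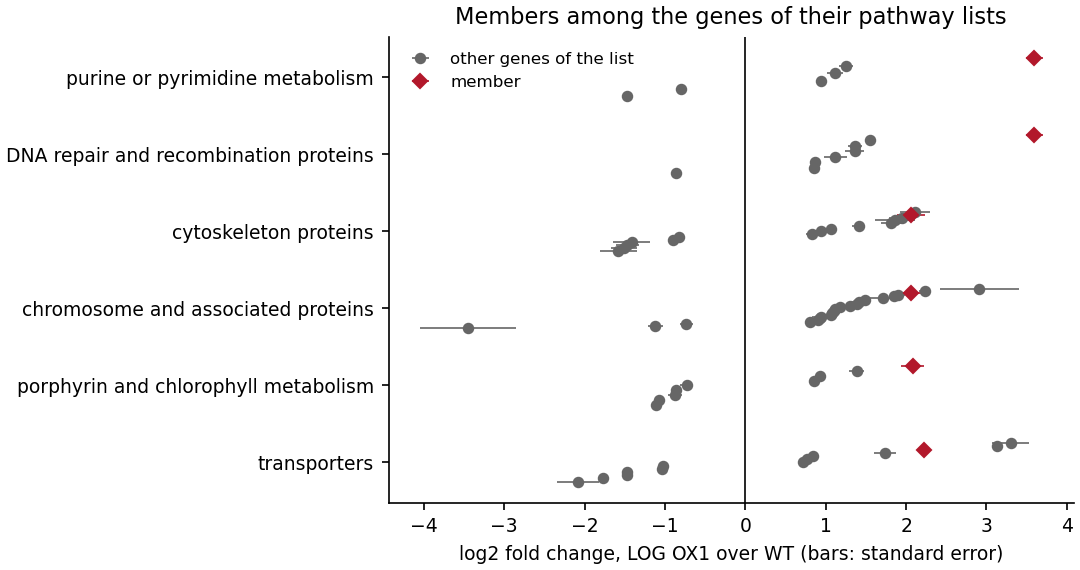
Log2 fold change of LOG OX1 over WT with its standard error for the genes of 6 pathway lists that the study drew up on these samples; diamonds are members and circles the other listed genes. The members stand at the right end of the purine or pyrimidine, DNA repair and porphyrin lists, while the cytoskeleton, chromosome and transporter lists hold other genes with larger changes, 2 of the transporters being genes left out by the rule.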

How the data were processed

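Reads of 3 LOG OX1 and 3 WT cultures were trimmed with Trim Galore, aligned with HISAT and counted per gene with HTSeq by the authors, and the deposited values are raw counts for 9625 genes per library, without normalization. The strand setting and tool versions are not given in the sources used here, so counts of overlapping genes or of near-identical copies are uncertain. CPM were computed from the library totals for the rule of membership. Tests used edgeR 4.0.16 in R 4.3.3 (TMM factors, filterByExpr with a minimum count of 10, quasi-likelihood F test with condition as the only term, Benjamini-Hochberg adjustment over 9101 genes, log2 fold changes with a prior count of 0.125), and each SE was derived as the size of that change over the root of F. Genes were called at limits of 0.05 on the adjusted p and 1.5-fold on the change. DESeq2 1.42.0 was an alternative. Both were tested on simulated data. Values were tabulated with Python 3.11.15.

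The members, the lists and the tests were chosen with earlier results of these data known. Named in the text are members with a protein name, the 10 largest ratios, the 5 most counted members, members beside another member, genes just inside and outside the limits, up to 5 further genes per pathway list, and CvarLOG1, and other genes were picked after their values were seen. Scaffold ends were inferred from drops in start position along the annotation. The cultures are labelled as biological replicates. Pairs of replicates differed by more than counting noise (chi-squared per degree of freedom of 2.41 to 7.27), and no tables were identical.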

Additional observations from a re-analysis of the deposited data

How the results depend on the processing

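The number of members followed the limits. It was 62 with a mean LOG OX1 CPM of at least 20 and 171 with a ratio of at least 3, against 107, and it lay within 1.5 times of that number under the other limits and scalings. With a library left out it was 103 to 108, and 20 members failed the rule in at least 1 of the 6 cases, among the named ones CHLNCDRAFT_9136, CHLNCDRAFT_142838, CHLNCDRAFT_137547, CHLNCDRAFT_137642, CHLNCDRAFT_54730, CHLNCDRAFT_50360, CHLNCDRAFT_133804 and CHLNCDRAFT_144183. The median log2 fold change of the members was 2.53. It was 2.54 with DESeq2, 2.64 with upper-quartile factors, 2.51 with library size only, 2.52 with at least 10 counts in every library (102 members), 2.54 with the replicate number as a block, and 2.54 to 2.61 with a library left out. Upper-quartile factors moved the median of all genes to 0.11 and the split of calls to 61.0% higher, against 49.0%. With the replicate block 1273 genes were called higher and 1330 lower; deviations of same-numbered libraries correlated at -0.21 to 0.00, and no LOG OX1 library correlated best with the WT library of its own number, so the numbers were not taken as pairs. At a fold change of at least 2 there were 580 and 613, against 1274 and 1328. For the genes beside the members, whose alternatives were chosen after seeing the data, there were then 18 and 9, against 37 and 19. With a library left out 36 to 40 neighbours were called higher and 19 to 20 lower. Upper-quartile factors gave 48 higher and 17 lower of 181 tested. With at least 10 counts in every library there were 31 higher and 16 lower of 171 tested. CvarLOG1 had a log2 fold change of 0.82 to 0.95 with a library left out and was called under every alternative fit at the 1.5-fold limit. At a fold change of at least 2 it was not called, since it was 1.82-fold higher in LOG OX1. Members beside another member numbered 9 pairs with up to 1 gene between them, against 5. All 454 alternative values of the 35 named members kept their direction, which the rule could hardly fail to give and from which nothing is read. Their lowest log2 fold change was 1.88, and the largest move was 0.31. Families by protein sequence and promoter features were planned but not run. The depth limits members with few counts in WT, whose ratios carry SEs of up to 0.33 on the log2 scale.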
